A study of Homo sapiens with 3 samples.

Results

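The comparison described here set HSC-3 cells transfected with a plasmid for green fluorescent protein (GFP) against HSC-3 cells that received no plasmid. HSC-3 is an established human tongue squamous carcinoma line. It took 2 of the 3 samples of the series. Each side was 1 oligonucleotide array hybridised with labelled RNA from 1 culture, so every difference below describes these RNA samples, and there was no replicate, no test and no p-value. A gene probe was a member when its spot was brighter than the mean plus 2 SD of the blank spots on the untransfected or the GFP array. That rule kept 18076 of 24454 probes, with 17162 above the limit on both arrays, 850 on the untransfected array only and 64 on the GFP array only. Of the members, 15377 carried a gene symbol and stood for 13700 genes, and 2699 carried none.

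The cultures were grown in the same medium with 10% serum, and RNA was taken 24 hours after transfection. The third culture of the series, of the same line, received a plasmid for full-length DKK3 with an HA tag, and its values are set beside the others where they help to read a probe. The GFP and untransfected cultures differ in the transfection procedure, the plasmid and the GFP protein at once, and these cannot be told apart, since no culture treated with reagent alone is analysed here. Which transfection reagent and promoter were used, and what share of cells took up the plasmid, the labels do not say. A treatment label also speaks of a mouse muscle line, but the titles and sources name the human tongue line. Of 37 listed genes of tongue squamous epithelium 35 were detected. The basal keratin KRT5 read 16548 intensity units on the untransfected array and 16709 on the GFP array, and its partner KRT14 read 8103 and 8728.

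Cells that find DNA or RNA in the cytosol or in endosomes answer through sensors such as cGAS, which detects DNA, and RIG-I (gene RIGI), which detects RNA ends. Their adaptors activate interferon regulatory factors and NF-κB, the first of which switch on interferon genes and the last of which switches on chemokines and cytokines. Secreted interferon then acts through its receptor, JAK kinases and a complex of STAT proteins with IRF9, which binds the interferon-stimulated response element in the promoters of many antiviral genes. Transfected plasmid DNA is a known trigger of these sensors in many cell lines.

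The arrays resembled each other closely. The log2 intensities of the GFP and untransfected arrays correlated at 0.996 across all 24454 kept probes, which are not independent replicates. Among the member probes the differences had a median of -0.0030 and a robust SD of 0.084. All differences are GFP minus untransfected on the log2 scale after an offset of 50 intensity units, which makes the differences of dim probes smaller than they were. Readings in intensity units are spot medians before correction and normalization, so their order between arrays can differ from that of the differences. The blanks averaged 36.3 on the untransfected array and 28.1 on the GFP array, so a dim probe may read lower on the GFP array and still have a difference near 0. Control spots printed 24 times on each array gave differences with an SD of 0.11 and 0.14. The median difference of a print block ran from -0.043 to 0.061 over the 24 blocks. Blocks 23 and 24 had the widest spread of differences, with an SD of 0.21 each, and genes printed in blocks 22 to 24, which hold 12.6% of the member probes, are marked below. Blocks 1 and 2 had the highest medians, 0.054 and 0.061, with an SD of 0.19 each. They hold IFIT3, ISG15, IL6, AKR1C2, TDRP and GRIP2 among other genes named below, and with block and row medians subtracted these stood at 1.89, 1.20, 0.92, 0.95, 2.24 and 1.53. In the authors' deposited values, which are scaled differently, the median of all probes is shifted by -0.22, and directions below are relative to the bulk of the probes. The medians of 19 of the 42 gene lists changed sign in those values, and 2, both near 0, did once the shift was taken off.

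Genes measured by more than 1 probe give a check within the array. There were 1622 genes with 2 or more detected probes, of which 949 had all probes on the same side of 0. In the 1571 genes with exactly 2 probes, 932 (59.3%) had both on the same side of 0. Their differences correlated weakly across genes (r = 0.34, Spearman's rho = 0.29). The typical spread between probes of a gene was 0.094, or 1.07-fold, no smaller than the robust SD of 0.084 over all member probes. A shared sign alone therefore says little about a small difference. All probes were at least 1.5-fold higher on the GFP array in 3 of 1622 genes (0.185%), which were IFIT2, RIGI and MX2. All 3 belong to the antiviral defence described above. For MX2, 1 of the probes was under the limit on the untransfected array and was a member only through the GFP array. With detection required on both arrays the count was 2, IFIT2 and RIGI. No gene (0%) had all its probes 1.5-fold lower.

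RIGI, the sensor of viral RNA ends, read 97.3 on the untransfected, 209 on the GFP and 209.6 on the DKK3 array on its first probe, a difference of 0.98 with GFP. On its other probe it read 117, 290.5 and 225, a difference of 1.17. Both probes were dimmest on the untransfected array. Before normalization the first was equally bright on the transfected arrays, and the other was brightest on the GFP array. After normalization the first stood at 0.98 with GFP and 1.11 with DKK3. The DNA sensor AIM2, which builds inflammasomes, came next in the order of agreeing genes. It read 128, 179 and 156 on 1 probe and 168, 236 and 196 on the other, a difference of 0.44 on each.

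After these, the agreement concerned small differences. With IFIT2, RIGI, MX2 and AIM2 included, all probes of a gene were at least 0.3 higher in 6 genes. They were at least 0.3 lower in 9 genes. The mitochondrial pore regulator PPIF was higher by 0.41 and 0.52, and the helicase DDX11 by 0.35 and 0.48 (the larger value of each in block 24). Next in the order came PHPT1, BABAM1, RND3, SLC50A1, AGR2 and STARD5, whose smallest differences ran from 0.29 down to 0.22. PLAAT4, a phospholipase known to be induced by retinoids and interferon, followed, higher by 0.21 and 0.51, the larger value again in block 24. On the DKK3 array PPIF was higher than in untransfected cells too, by 0.71 and 0.72, while PLAAT4 stood at 0.10 and 0.13.

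On the lower side the agreeing genes were of mixed function. The aminopeptidase NPEPPS stood at -0.50 and -0.48 on its probes (the last in block 22). The splicing factor HNRNPA2B1 read 7999 on the untransfected, 5843 on the GFP and 6689 on the DKK3 array, a difference of -0.54, and -0.43 on its other probe. The nuclear matrix protein MATR3 stood at -0.34 and -0.36, and the chromatin protein ANP32A at -0.45 and -0.38 (the last in block 23). HNRNPA2B1 was dimmest on the GFP array, and the differences of this group were all under 1.5-fold. Among division genes, CDCA2, which brings a phosphatase to chromatin at mitotic exit, stood at -0.37 and -0.38. The mitotic cyclin CCNB1 stood at -0.29 and -0.35 (the last in block 24), and ECT2, which drives the cleavage furrow, at -0.27 and -0.30. LEO1, AQP3, DNAAF5, RAD51AP1 and METAP2 ranked before CCNB1, and FLII, HACD3 and RANBP9 between CCNB1 and ECT2.

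**Figure D1:**
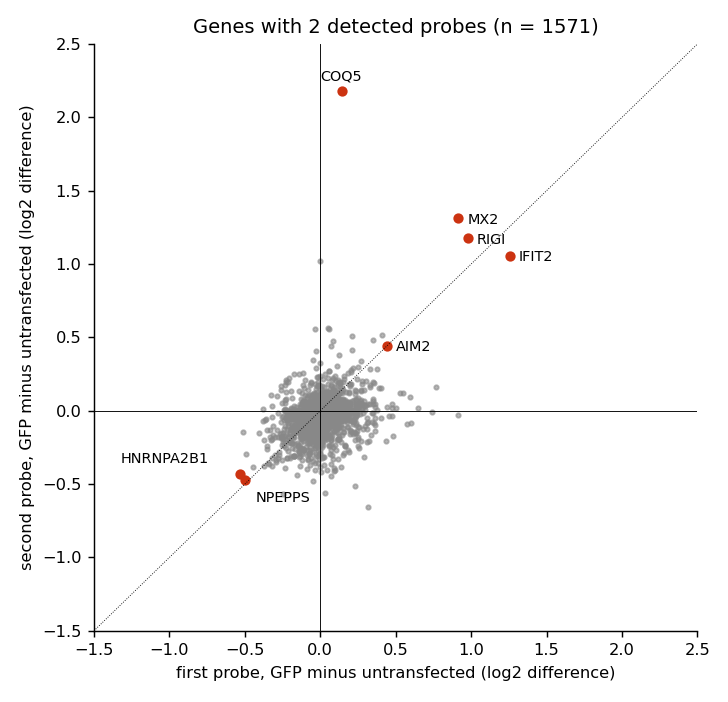
Each point is 1 of the 1571 genes with 2 detected probes; the axes give the difference GFP minus untransfected (log2) on the first and the other probe, and the dotted line marks equal values. Most genes lie close to 0 on both axes, IFIT2, MX2 and RIGI lie near 1 on both, AIM2 at 0.44 on both, and COQ5 is at 2.18 on 1 probe and 0.14 on the other.

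The IFIT family binds the caps and ends of foreign RNA and blocks its translation. All 5 listed members were detected, and 3 of them were at least 2-fold higher on the GFP array, against 0.255% of all 13700 detected genes. The family median was 1.16, against -0.0046 for all genes. In RNA from a whole culture, more responding cells and more RNA in each of them cannot be told apart, here and below.

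IFIT1 read 154 on the untransfected, 970.4 on the GFP and 645 on the DKK3 array, a difference of 2.47 (5.52-fold) with GFP, the highest of all members (block 24). IFIT3, which stabilises IFIT1, read 174, 791 and 603, a difference of 2.01 (4.03-fold). Both were several times brighter on the 2 transfected arrays, and brightest on the GFP array. IFIT2 read 109, 291 and 256 on the first probe and 92.8, 213 and 169.6 on the other, printed in block 23, with differences of 1.25 and 1.06. IFIT5 read 101, 128 and 122, a difference of 0.33. IFIT1B, a relative not known to respond to interferon, read 41.8, 35.5 and 36.9, close to the blanks on each array, with a difference of 0.05.

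Promoters of 4 of the higher interferon genes are shown as examples, chosen because they hold matches to the core of the interferon-stimulated response element, here searched as GAAA, any 2 bases and GAAA again, on both strands. Each is the window from 250 bases before to 50 bases after the annotated start, 5′ to 3′ on the strand of the gene, from RefSeq on GRCh38.p14, with matches in capitals. IFIT1 lies on the plus strand at chr10:89392373-89392672 and has matches 116 and 103 bases before the start. IFIT3 lies on the plus strand at chr10:89327747-89328046, with matches at 156 and 122 bases. ISG15 lies on the plus strand at chr1:1013247-1013546, with 2 overlapping matches at 113 and 107 bases. IFI6 lies on the minus strand at chr1:27672143-27672442, with 3 matches at 156, 115 and 93 bases.
IFIT1: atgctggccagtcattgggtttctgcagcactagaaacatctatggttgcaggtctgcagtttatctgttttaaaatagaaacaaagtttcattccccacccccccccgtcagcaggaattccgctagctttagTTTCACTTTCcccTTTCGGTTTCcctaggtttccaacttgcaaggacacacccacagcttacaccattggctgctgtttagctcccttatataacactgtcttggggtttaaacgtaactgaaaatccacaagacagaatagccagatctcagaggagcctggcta
IFIT3: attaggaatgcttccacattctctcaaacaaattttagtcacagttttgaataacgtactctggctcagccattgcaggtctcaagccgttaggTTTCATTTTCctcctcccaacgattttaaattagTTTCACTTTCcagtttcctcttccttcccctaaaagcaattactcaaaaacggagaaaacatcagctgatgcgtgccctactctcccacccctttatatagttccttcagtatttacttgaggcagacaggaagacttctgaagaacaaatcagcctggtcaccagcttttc
ISG15: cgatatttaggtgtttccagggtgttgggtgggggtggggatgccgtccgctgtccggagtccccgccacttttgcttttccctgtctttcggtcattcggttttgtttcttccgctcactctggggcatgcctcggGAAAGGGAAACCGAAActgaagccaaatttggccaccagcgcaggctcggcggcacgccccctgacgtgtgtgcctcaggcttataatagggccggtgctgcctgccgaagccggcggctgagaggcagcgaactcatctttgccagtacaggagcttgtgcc
IFI6: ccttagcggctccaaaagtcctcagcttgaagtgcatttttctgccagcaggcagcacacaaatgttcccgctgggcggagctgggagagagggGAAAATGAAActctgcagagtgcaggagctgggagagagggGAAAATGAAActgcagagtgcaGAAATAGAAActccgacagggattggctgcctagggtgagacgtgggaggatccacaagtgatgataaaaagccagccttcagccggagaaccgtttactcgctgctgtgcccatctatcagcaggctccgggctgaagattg

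The motif was found in 1255 of 35116 promoter windows (3.57%). A match describes the letters of the window and is not a measured binding site. Of the 11055 detected genes with a window, 425 held the motif and 14 of these (3.29%) were at least 1.5-fold higher on the GFP array. Genes without a window, among them IFIT2, MX2, IRF7 and USP18, are not in these counts. Among the 10630 whose windows lacked the motif, 44 (0.414%) were at least 1.5-fold higher. The medians of both groups were near 0, at 0.0020 and -0.0064. The higher genes with the motif were nearly all listed interferon genes: of the 36 on those lists 13 were 1.5-fold higher, and of the 389 others 1 was. That gene was WARS1, the tryptophan tRNA synthetase, which is also known as an interferon-induced gene. It read 459 on the untransfected, 804 on the GFP and 741 on the DKK3 array, a difference of 0.72. Of the 61 detected interferon-stimulated genes with a window, 36 (59.0%) held the motif, with a median of 0.32, against 0.22 for those without.

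**Figure D2:**
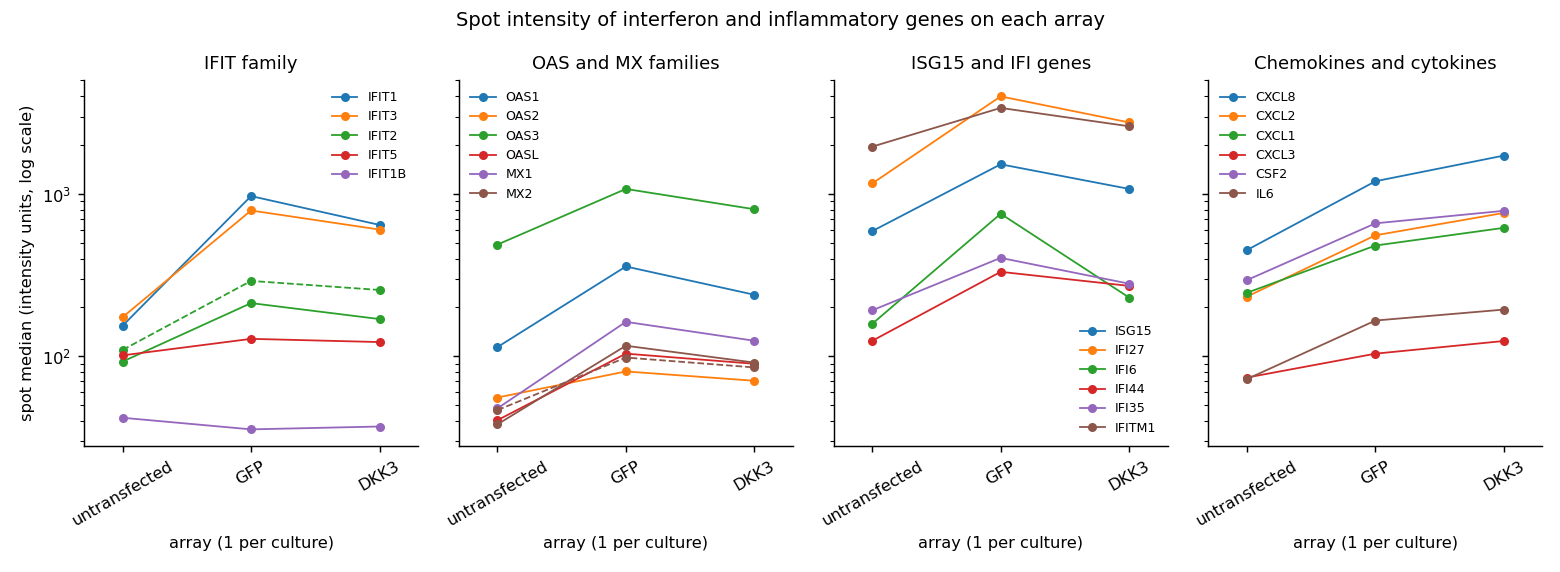
Spot median in intensity units on a log axis for each array, 1 array per culture, for the IFIT, OAS and MX, ISG15 and IFI, and chemokine and cytokine genes; a dashed line is the other probe of the same gene. Before normalization, every interferon gene shown except IFIT1B is brightest on the GFP array, and the chemokines and cytokines shown are brightest on the DKK3 array. After normalization IFIT5 stands at 0.33 with GFP and 0.37 with DKK3, and the first IFIT2 probe at 1.25 with each.

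The oligoadenylate synthetases (OAS) make a messenger that activates RNase L, and the MX proteins are GTPases that trap viral particles. All 6 detected members were higher on the GFP array and 5 were 2-fold higher, against 0.255% of all detected genes, with a median of 1.12. OASL and 1 of the MX2 probes were members only through the GFP array. With detection required on both arrays MX2 stood at 0.91 and OASL dropped out. OAS1 read 114 on the untransfected, 357 on the GFP and 239 on the DKK3 array, a difference of 1.48 (block 22). OAS3 read 488, 1074 and 805, a difference of 1.04. OAS2 read 55.7, 80.7 and 70.7, a difference of 0.50, and was the member under 2-fold (block 22). It passed 2-fold with the blanks subtracted (1.37) and in the deposited values (1.14).

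MX1 read 47.8, 163 and 125 in the same order, a difference of 1.49. Its relative MX2 read 46.6, 98.3 and 85.4 on 1 probe, a difference of 0.91. The other MX2 probe was under the detection limit in untransfected cells and was at least 2.36-fold higher with GFP. OASL, which stimulates RIG-I signalling, was likewise not detected in untransfected cells (40.4) and was at least 2.17-fold higher with GFP (104). So these dim genes were near the blanks in untransfected cells and clearly above them in both transfected cultures.

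The small interferon-induced proteins of the IFI and IFITM groups act at membranes and mitochondria. Of 11 detected members 10 were above 0, 7 were 1.5-fold higher and 3 were 2-fold higher, with a median of 0.90. At 1.5-fold the share of all detected genes was 0.547%. IFI27 read 1161 on the untransfected, 3991 on the GFP and 2759 on the DKK3 array, a difference of 1.68. IFI44 read 125, 331 and 271, a difference of 1.27. IFI35 (0.96), the tethering protein BST2 (0.93) and IFITM1 (0.71), which blocks viral entry, were higher too. IFI44L, not detected in untransfected cells, was at least 1.82-fold higher.

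IFI6 departed from the others. It read 158 on the untransfected, 755 on the GFP and 230.1 on the DKK3 array, a difference of 2.08 with GFP and 0.63 with DKK3. Its spot lies in block 22 and it had no other detected probe. The other 13 interferon-stimulated probes at 2-fold stood at 0.83 or more with DKK3.

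ISG15 is a ubiquitin-like protein attached to other proteins by its own enzymes. It read 590.2, 1523 and 1074 on the untransfected, GFP and DKK3 arrays, a difference of 1.27. USP18, which removes ISG15 and damps the interferon receptor, read 83.0, 187 and 163, a difference of 1.03. The conjugating enzyme UBE2L6 was higher by 0.52, the ligase HERC5 by 0.29 and TRIM25 by 0.24. The activating enzyme UBA7 stood at 0.09. All 7 members were above 0, with a median of 0.29.

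Among 37 other antiviral effectors the differences were smaller. Of these 31 were above 0, against 47.3% of all detected genes, 4 were 1.5-fold higher and none was 2-fold higher, with a median of 0.17. The scramblase PLSCR1 read 581 on the untransfected, 1025 on the GFP and 851 on the DKK3 array, a difference of 0.74. TRIM22, a ubiquitin ligase that restricts viruses, was higher by 0.71. SP110 and EPSTI1 were each higher by 0.61. EIF2AK2, the kinase PKR that stops translation on sensing double-stranded RNA, stood at 0.55. XAF1 stood at 0.48, ISG20 at 0.40 and TRIM21 at 0.39. RSAD2 (viperin), named outside the rule because it is a widely used interferon marker, read 82.6, 75.7 and 73.2, a difference of -0.01.

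The guanylate-binding proteins and the PARP proteins, which are also induced by interferon, and the first of these above all by interferon gamma, lay near 0. All 6 detected GBP genes were between -0.13 (GBP6) and 0.20, with a median of 0.043. GBP1 read 48.4 on the untransfected and 42.0 on the GFP array on 1 probe, a difference of 0.03, and 70.0 and 80.9 on the other, a difference of 0.25 (block 24). GBP3 stood at 0.27 and 0.14, GBP2 at 0.06, GBP4 at 0.02 (block 22) and GBP5 at 0.01 (block 24). PARP14 was at 0.27 and PARP9 at 0.26, and the 7 PARP genes had a median of 0.086, with none 1.5-fold higher.

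Over all 7 of these lists, 78 of 89 interferon-stimulated genes were detected. Of these 68 were above 0, 21 were 1.5-fold and 13 were 2-fold higher, and none was 1.5-fold lower, with a median of 0.23 (0.22 with genes under the limit at their bound). OASL, in both counts, and IFI44L, in the 1.5-fold count, were not detected on the untransfected array. MX2 reached 2-fold only with a probe of that kind. With detection required on both arrays the median was 0.24. With GFP, 47.3% of all detected genes were above 0, 0.547% were 1.5-fold and 0.255% were 2-fold higher, and 0.109% were 1.5-fold lower. These shares also stand beside the counts of the lists below. The genes with a probe in blocks 22 to 24 numbered 15, and the median without those blocks was 0.25. The DKK3 array, compared with the same untransfected array, gave a median of 0.24, with 65 genes above 0 (46.9% of all detected genes were), 19 genes 1.5-fold and 8 genes 2-fold higher, where 0.701% and 0.234% of all detected genes were. Both comparisons use 1 untransfected array, so a low spot there raises both.

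Upstream of these genes fewer genes differed. Of 20 detected sensors and adaptors 14 were above 0, with a median of 0.043, and RIGI and IRF7 were 2-fold higher. IRF7, the regulatory factor that amplifies interferon production, read 212 on the untransfected, 566 on the GFP and 429 on the DKK3 array, a difference of 1.30. The RNA sensor IFIH1 (MDA5) stood at 0.18 and the kinase IKBKE at 0.29. The DNA sensor gene CGAS read 324, 302 and 219, a difference of -0.12 (block 22). The adaptor MAVS stood at -0.16. Of the 8 sensor and adaptor genes named for their size, only RIGI, IRF7 and AIM2 were above 0.3.

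No interferon gene stood out. Of 14 detected interferon and receptor genes 7 were above 0 and none reached 1.5-fold at the offset of 50. The gene for interferon beta, IFNB1, read 44.0 on the untransfected, 41.3 on the GFP and 41.8 on the DKK3 array, slightly above the limits of 40.8, 33.8 and 36.6, with a difference of 0.12. That size depends on the processing, since IFNB1 stood at 0.71 with the blanks subtracted and at 0.58 in the deposited values, so for this dim transcript the signal does not settle whether it differed. The receptor chains IFNAR2 (0.20 and 0.18 on its probes, the last in block 24) and IFNGR2 (0.27 and 0.20) were slightly higher on both probes of each.

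Of the 14 detected genes that relay the receptor signal or inhibit it, 3 were 1.5-fold higher, with a median of 0.027. IRF9, the DNA-binding part of the STAT complex, read 71.7 on the untransfected, 149 on the GFP and 118 on the DKK3 array, a difference of 0.92 (block 23). STAT2 read 297, 484 and 405, a difference of 0.62. USP18, given above, was the third. IRF1 stood at 0.31, the kinases TYK2 and JAK2 at 0.12 and -0.05, and the inhibitor SOCS1 at 0.12.

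Antigen presentation differed little. The 15 detected genes of MHC class I and peptide loading had a median of 0.040, with 10 above 0 and none 1.5-fold higher. HLA-F was at 0.48, HLA-E at 0.34 and the peptide transporter TAP1 at 0.29, while the trimming peptidase ERAP1 was at -0.23. HLA genes are near-identical in long stretches, so a probe may read several of them. The immunoproteasome list holds subunits that replace those of the standard proteasome under interferon, and the activators PSME1, PSME2 and PSME3. It had a median of 0.18 over 6 genes, 5 of them above 0. The activator PSME1 was at 0.36, PSMB8 at 0.20 and 0.26 on its probes, and PSMB9 at 0.18. The 31 standard proteasome genes had a median of -0.0064, with 15 above 0. Among them PSMB5 (0.49, block 24) and PSMB7 (0.37) stood above every gene of the immunoproteasome list, while PSMA7 was at -0.55 and PSMD4 at -0.36.

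**Figure D3:**
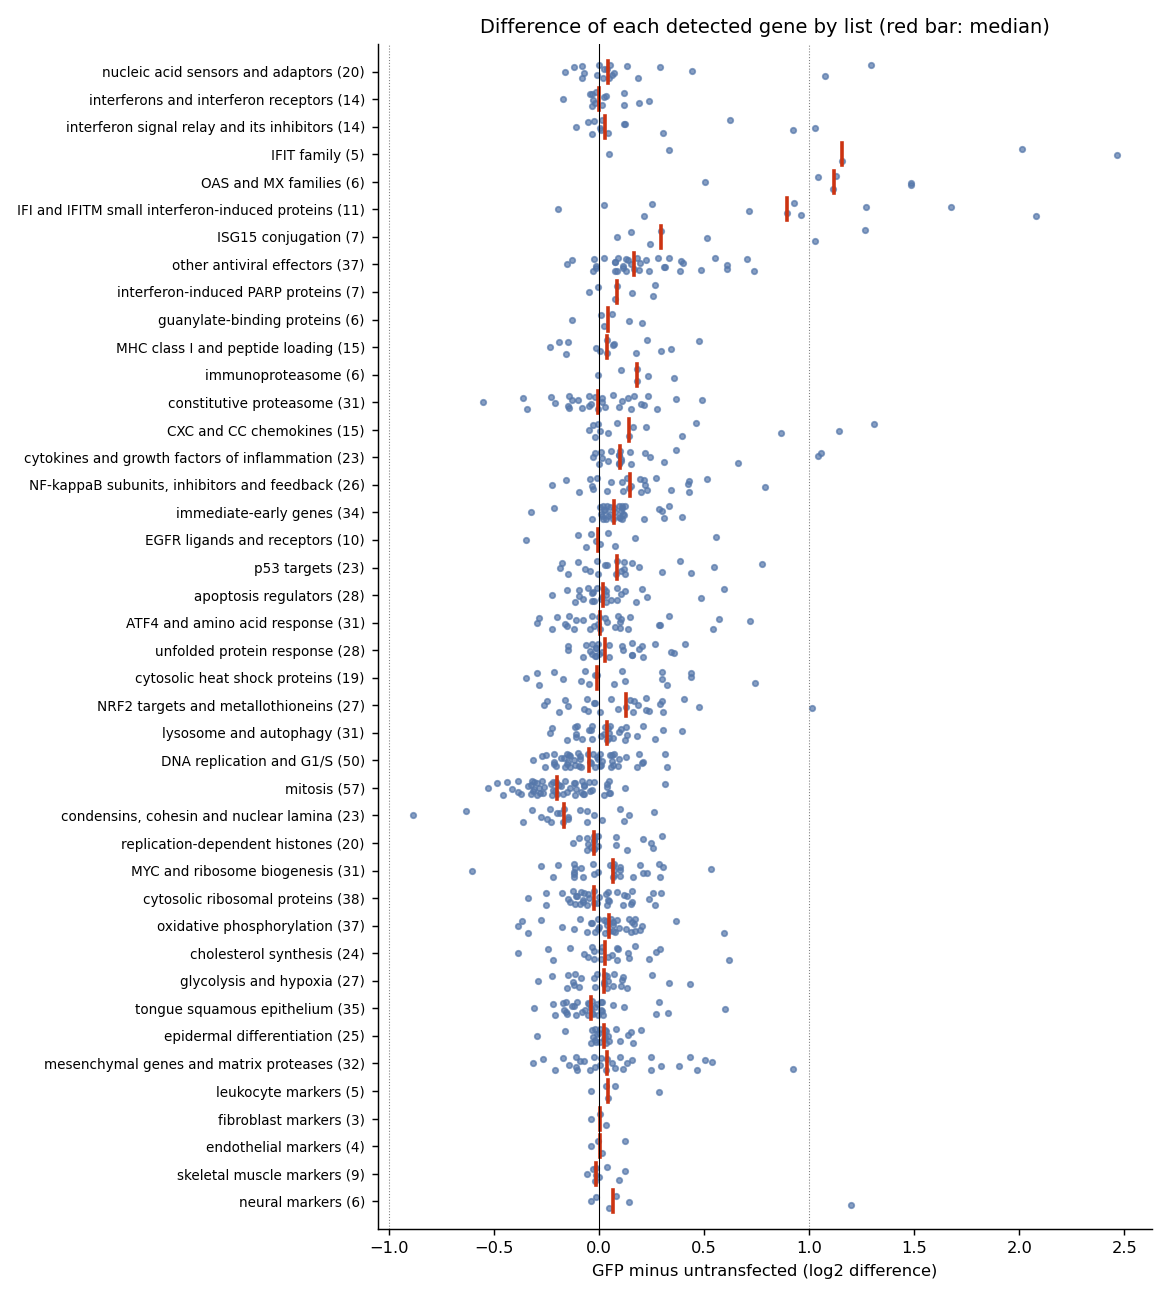
Difference GFP minus untransfected (log2) of every detected gene, by list, with the number of detected genes in brackets; points are genes and red bars are medians. The IFIT, OAS and MX, and IFI and IFITM lists have medians of 1.16, 1.12 and 0.90, the mitosis list lies at -0.20, and most other medians are within 0.1 of 0.

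Inflammatory genes made up another group of higher genes. Of 64 detected genes of the chemokine, cytokine and NF-κB lists, 50 were above 0, 7 were 1.5-fold and 4 were 2-fold higher, and none was 1.5-fold lower, with a median of 0.12. Of all detected genes 47.3% were above 0, 0.547% were 1.5-fold and 0.255% were 2-fold higher, and 0.109% were 1.5-fold lower. CXCL8, the neutrophil chemokine interleukin-8, read 451 on the untransfected, 1198 on the GFP and 1724 on the DKK3 array, a difference of 1.31. CXCL2 read 233, 556 and 764, a difference of 1.14. CXCL1 read 246, 481 and 619, a difference of 0.87. All 3 act on the same neutrophil receptor and were brighter in both transfected cultures, most of all on the DKK3 array. CXCL3, of the same group, was at 0.46. CXCL10, an interferon-induced chemokine for T cells, was not detected in untransfected cells and was at least 1.22-fold higher with GFP, at 45.9 intensity units.

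Of the cytokines, CSF2 (GM-CSF) read 295, 659 and 788 on the untransfected, GFP and DKK3 arrays, a difference of 1.06. IL6 read 72.4, 166 and 194, a difference of 1.04. TNF read 75.9, 126 and 136, a difference of 0.66. Thus the 4 inflammatory genes at 2-fold with GFP (CXCL8, CXCL2, CSF2 and IL6) were further from the untransfected array on the DKK3 array, by 2.03, 1.77, 1.49 and 1.36. Over their whole lists, 39 of 64 detected inflammation genes and 35 of 78 interferon-stimulated genes stood higher with DKK3 than with GFP. The same share over all detected genes was not computed, so no contrast between the lists is read from these counts. IFIT1, OAS1 and IFI27 were further up with GFP, while HERC5 (0.29 with GFP and 0.41 with DKK3) and TRIM25 (0.24 and 0.39) were further up with DKK3. The difference between the transfected arrays was not tested.

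The NF-κB list holds subunits of the factor and the inhibitors it induces. Of 26 detected members 19 were above 0 and 1 was 1.5-fold higher, with a median of 0.15. That gene was SOD2, the mitochondrial superoxide dismutase, which read 944 on the untransfected, 1762 on the GFP and 1462 on the DKK3 array, a difference of 0.79. The feedback inhibitor TNFAIP3 (A20) was at 0.51, BIRC3 and NFKBIE were each at 0.43, and the adhesion molecule ICAM1 was at 0.42. All 4 were also higher on the DKK3 array.

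Promoters of the leading chemokines are shown for the NF-κB sequence GGAATTTCC, again searched on both strands and in capitals. CXCL8 lies on the plus strand at chr4:73740319-73740618, with the match 91 bases before the start, and CXCL2 lies on the minus strand at chr4:74099146-74099445, with the match at 77 bases.
CXCL8: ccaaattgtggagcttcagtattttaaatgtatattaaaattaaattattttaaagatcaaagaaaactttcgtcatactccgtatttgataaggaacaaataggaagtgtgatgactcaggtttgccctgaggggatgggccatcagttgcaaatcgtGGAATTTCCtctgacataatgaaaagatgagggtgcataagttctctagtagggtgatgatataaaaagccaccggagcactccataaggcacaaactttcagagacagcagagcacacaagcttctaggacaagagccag
CXCL2: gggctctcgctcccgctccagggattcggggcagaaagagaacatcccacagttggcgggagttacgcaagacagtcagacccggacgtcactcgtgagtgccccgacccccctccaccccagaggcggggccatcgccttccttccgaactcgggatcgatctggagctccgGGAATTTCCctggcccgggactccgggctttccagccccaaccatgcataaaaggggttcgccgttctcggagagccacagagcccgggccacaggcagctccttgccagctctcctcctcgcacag

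This sequence was in 162 windows (0.461%). Of 69 detected genes that held it 4 (5.8%) were 1.5-fold higher, against 0.492% of those without it. The 4 genes were CXCL1, CXCL2, CXCL8 and OAS3. Of 13 detected chemokine genes with a window 7 held the sequence, and their median difference was 0.46. It is an exact string, so other forms of the NF-κB site were not counted.

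**Figure D4:**
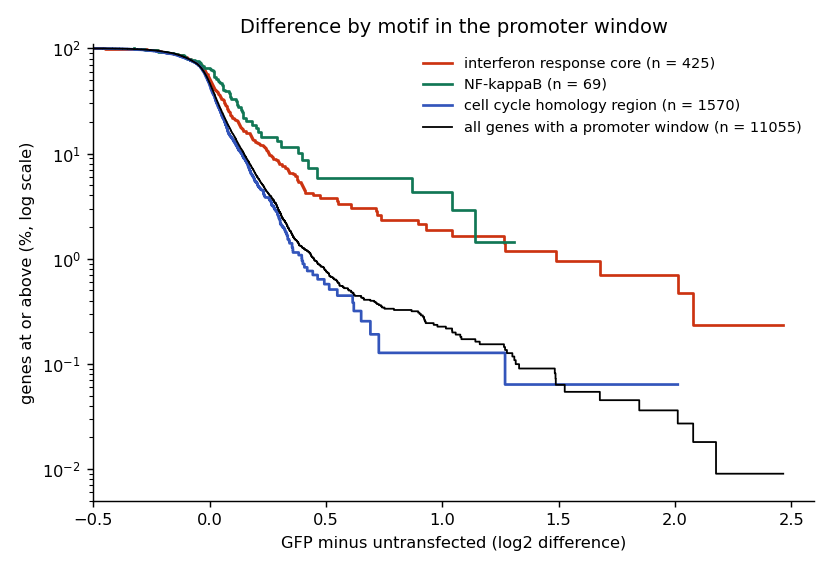
Share of genes (%, log axis) at or above each difference GFP minus untransfected (log2), for detected genes whose promoter window holds the interferon response core (425 genes), the NF-κB sequence (69) or the cell cycle homology region (1570), and for all 11055 with a window. The first 2 curves lie above that of all genes from about 0.1 upward, and the third lies near or below it over most of the range.

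Genes of cell division lay to the lower side. Of 57 detected mitosis genes 49 were below 0, against 52.6% of all detected genes, with a median of -0.20. None reached 1.5-fold, a size that 0.109% of all genes reached downward, so the list was marked by many small differences of 1 sign. KIF20A, a kinesin of cytokinesis, read 611 on the untransfected, 436 on the GFP and 459 on the DKK3 array, a difference of -0.53. RACGAP1, which acts at the spindle midzone, read 366, 259 and 299, a difference of -0.49. KIF11, the kinesin that separates the spindle poles, read 695, 524 and 477, a difference of -0.46. Cyclin A2 (CCNA2) was at -0.44 (block 22). A few members lay above 0, none further than 0.31.

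The mitosis median was -0.19 with blocks 22 to 24 left out, and -0.18 after subtracting the median of each block and row. On the DKK3 array it was -0.13, with 10 of 57 above 0. The cell cycle homology region, a motif of late cell cycle promoters searched as TTTGAA, was in 15.2% of all windows and in 33 of 48 mitosis promoters (68.8%). Those 33 genes had a median of -0.22 and the others one of -0.081. Over all 1570 detected genes with the motif the median was -0.0091, against -0.0057 without it, and 7 of them (0.446%) were 1.5-fold higher, against 0.538%.

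Condensins, cohesin and lamina genes shape chromosomes and the nuclear envelope. Of 23 detected members 18 were below 0, with a median of -0.17, and 2 were 1.5-fold lower. Lamin B1 (LMNB1) read 469 on the untransfected, 249 on the GFP and 153 on the DKK3 array, a difference of -0.89, and the condensin subunit NCAPH read 561, 362 and 219, a difference of -0.63. Both spots lie in blocks 22 to 24 (blocks 23 and 24), and each gene had no other detected probe. Elsewhere on the array SMC4, the core of condensin, was at -0.36 and read 1837, 1509 and 1563. DNA replication genes were closer to 0, with 31 of 50 below 0 and a median of -0.047. GINS4 and CDC45, parts of the replicative helicase, were at 0.32 and 0.31, and the clamp loader subunit RFC3 was at -0.31. Together, 98 of 130 detected division genes were below 0, with a median of -0.14.

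Among stress and damage genes, a few stood well above their lists. Among 23 detected p53 targets, 15 of them above 0 with a median of 0.085, the growth arrest gene GADD45A read 1188 on the untransfected, 2172 on the GFP and 2236 on the DKK3 array, a difference of 0.78. The apoptosis inducer BBC3 was at 0.55 (block 24) and the kinase inhibitor CDKN1A at 0.44. In the integrated stress response, whose 31 genes had a median of 0.0057, DDIT3 (CHOP) was at 0.57 and PPP1R15A at 0.54. Of 34 detected immediate-early genes 31 were above 0, against 47.3% of all detected genes, by small amounts, with a median of 0.074, KLF6 at 0.40 and ATF3 at 0.33 as the highest and EGR1 at -0.32. The EGFR ligand HBEGF read 178, 275 and 396, a difference of 0.56. The death adaptor FADD was at 0.59 and WARS1, given above, was the highest of the amino acid response.

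Among 27 detected NRF2 targets and metallothioneins 17 were above 0, with a median of 0.13 that was -0.059 in the deposited values and 0.16 there after the shift of all probes is taken off. AKR1C2, a reductase induced by NRF2, read 748 on the untransfected, 1640.3 on the GFP and 1372 on the DKK3 array, a difference of 1.02. It fell short of 2-fold with block and row medians subtracted (0.95), in the deposited values (0.90) and with no filter on dim probes (0.51), where an undetected spot enters its mean. NQO1 was at 0.48 and AKR1C3 at 0.41. AKR1C genes are close copies of each other, so their probes may share signal. The chaperone HSP90AB1 was at 0.74 in a list of 19 cytosolic heat shock genes with a median of -0.011. The unfolded protein response (28 genes) lay at 0.031, with its factor XBP1 at 0.41.

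In invasion and matrix genes, 32 detected, the median was 0.037. SERPINB2, an inhibitor of plasminogen activators, read 1057 on the untransfected, 2131 on the GFP and 1711 on the DKK3 array, a difference of 0.93 (block 22), and the urokinase receptor PLAUR was at 0.54 (block 24). The collagenase MMP13 read 47.0, 67.3 and 61.0, a difference of 0.50. Urokinase itself (PLAU) was at 0.77 on 1 probe and 0.16 on the other (block 22), so its probes disagree.

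Housekeeping and identity lists stayed close to 0. The medians were -0.024 for 38 cytosolic ribosomal protein genes, 0.066 for 31 genes of MYC and ribosome biogenesis, 0.047 for 37 genes of oxidative phosphorylation, 0.029 for 24 genes of cholesterol synthesis and 0.024 for 27 genes of glycolysis and hypoxia. The sterol regulator SREBF2 was at 0.62, the complex I subunit NDUFS8 at 0.59, FBL, which methylates ribosomal RNA, at 0.53 (block 24) and RUVBL1, an ATPase of chromatin complexes, at -0.60. Tongue squamous genes had a median of -0.036 over 35, and epidermal differentiation genes 0.024 over 25.

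Markers of other cell types were detected in part. Of 12 leukocyte markers 5 were detected, with CD68 at 277 on the untransfected and 350.2 on the GFP array the only one above 100, and summed levels of 492 and 542. Of 10 fibroblast markers 3 were detected, with DCN at 168 and 170.0 the brightest and summed levels of 303 and 290.0, and of 8 endothelial markers 4, at 391.1 and 391.1. Of 10 skeletal muscle markers 9 were detected, with summed levels of 1449.8 and 1456, most of it from TNNT1, which read 999 and 1053. The muscle regulator MYOD1 read 41.8 and 32.7, at the limit on the first array and under it on the other. Of 9 neural markers 6 were detected, with summed levels of 468 and 559.9, and most of the excess came from GFAP, which read 43.0, 117 and 36.5 on the untransfected, GFP and DKK3 arrays, with a smaller part from a TUBB3 probe that read 345 and 433 on the first 2 arrays. What part these markers have in the differences above was not tested.

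Probes 2-fold apart fell into separate kinds. On the higher side there were 41 of 18076 (0.227%) and on the lower side 5 (0.0277%). With detection required on both arrays the counts were 37 and 5. In the deposited values, shifted as given above, these counts were 81 and 149. With block and row medians subtracted, OAS3 (0.98), CSF2 (0.95), IL6 (0.92) and AKR1C2 (0.95) fell just short of 2-fold. Of the 41 probes, 14 belonged to 13 interferon-stimulated genes, 2 to interferon sensing and signalling (IRF7 and RIGI) and 4 to inflammation (CXCL8, CXCL2, CSF2 and IL6). Of these 20, all were well above untransfected cells on the DKK3 array too, none within 0.2 of 0, a limit chosen after the values were seen. The remaining 21 probes were 2 on other listed genes, 15 on genes of no list and 4 without a symbol.

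Of those 21 probes, 18 lay within 0.2 of 0 on the DKK3 array, and so were bright on the GFP array alone. The gene TDRP read 56.9 on the untransfected, 348 on the GFP and 53.3 on the DKK3 array, a difference of 2.27. RTL10 read 167, 856 and 132, a difference of 2.18. PHKG1, a subunit of phosphorylase kinase, read 55.3, 248 and 46.6, a difference of 1.85. The same shape was seen in GRIP2 (1.58), ZSWIM8 (1.53), NOC4L (1.49) and GFAP (1.20). With no filter on dim probes, an undetected spot of GRIP2 enters its mean and lowers it to 0.79. Of the interferon and inflammation probes none had it.

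Other probes of the same gene could be consulted for 5 of the 39 genes with a 2-fold probe. They agreed for IFIT2, MX2 and RIGI and did not for COQ5 and ATXN7L2, which are named because of these values. For MX2 the probe at 2-fold was under the limit in untransfected cells. COQ5, an enzyme of ubiquinone synthesis, read 78.1, 432 and 407 on 1 probe, a difference of 2.18, and 349, 399 and 341 on the other, a difference of 0.14. ATXN7L2 read 314, 678 and 257 on 1 probe, a difference of 1.02 (block 22), and stood at 0.0005 on the other. For the 34 other genes 1 detected probe was all there was.

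On the lower side, ATP8B4, a lipid flippase, read 702 on the untransfected, 35.1 on the GFP and 36.2 on the DKK3 array, a difference of -3.58, and NAPEPLD, a phospholipase, read 656, 68.5 and 72.2, a difference of -2.87. Both spots lie in row 6 of block 23, and in both the untransfected array was the bright one. These and SIAE were the 3 genes of 13700 (0.0219%) that were 2-fold lower. SIAE, a sialic acid esterase, read 108, 34.6 and 104, a difference of -1.06, and so was dim on the GFP array alone. OSCP1, not detected on the GFP array, was at least 1.80-fold lower there (block 24). DUS2 at -0.81, DNAJC21 at -0.74 (block 23), TWF1, an actin-capping protein, at -0.71, HINT3 at -0.68 and FRMD8 at -0.67 followed, each on 1 probe.

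**Figure D5:**
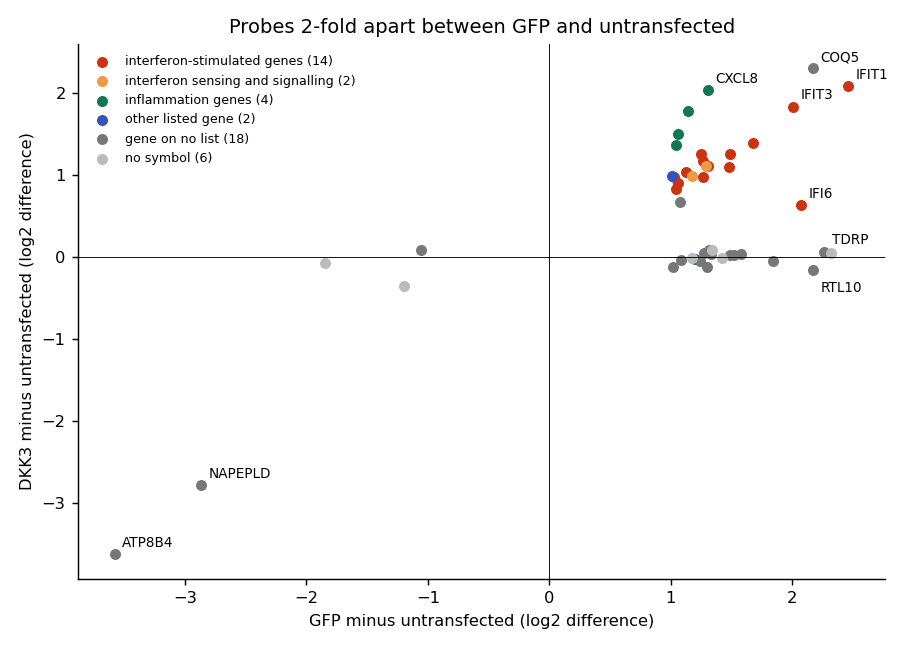
Probes at least 2-fold apart between the GFP and untransfected arrays, with the difference GFP minus untransfected on the x axis and DKK3 minus untransfected on the y axis (both log2, both against the same untransfected array). Interferon and inflammation probes lie well above 0 on the y axis, from 0.63 for IFI6 to 2.08 for IFIT1, while 18 of the 41 higher probes, TDRP and RTL10 among them, lie within 0.2 of 0 on it.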

How the data were processed

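RNA of 3 HSC-3 cultures was labelled with Cy5 and hybridised to 1 array each. The scanner files deposited by the authors give a median intensity per spot, combined over several gains per the file headers. The scanner software and image settings are not given in the sources used here. The authors also deposited a value table of intensity on a linear scale, which was used as an alternative. Each array held 27456 spots, of them 2680 blanks and 24460 gene probes, and 6 probes marked as faulty were left out. Detection limits were 40.8, 33.8 and 36.6 intensity units on the untransfected, GFP and DKK3 arrays, and 18012, 17226 and 17352 probes passed. The number of arrays limits the precision.

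With limma 3.58.1 under R 4.3.3, spot medians were background-corrected (normexp, offset 50) and control spots dropped. The 3 arrays were then quantile normalized on the linear scale, and log2 was taken afterwards. No gene probe was averaged with another except for lists, where a gene's value is the mean over its detected probes. The main setting was run on simulated copies of the untransfected array with known changes placed in bright probes. The alternatives, and changes in dim probes, were not tested in this way. Symbols came from the platform annotation: 17234 probes had a symbol current in RefSeq (GRCh38.p14), 2898 were updated through a synonym, 99 were kept as annotated and 4223 had none. For a probe seen on 1 side only, the fold is a lower bound, taken from the lowest detected level on the other array or the probe's own level there, whichever was higher. Promoter windows were searched in Python 3.11.15 with pandas 2.3.3.

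The members and the 42 gene lists were chosen with earlier results of these data known. Genes were taken from those that a rule gives: the 15 highest and 15 lowest genes with agreeing probes, all IFIT, OAS, MX and guanylate-binding genes, the 4 most different members of every other list (8 for interferon and inflammation lists), and the 10 highest and 10 lowest genes with 1 probe. Not every gene that the rule gives is described, and the choice among them was not by rank. KRT5, KRT14, RSAD2, TNNT1, MYOD1, COQ5 and ATXN7L2 were named outside the rule. For 12 alternatives each value was computed again.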

Additional observations from a re-analysis of the deposited data

How the results depend on the processing

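No paired analysis was possible because each group is 1 array. Of the 12 alternatives, 8 moved none of the 7 main values beyond the spread between probes of a gene (0.094) or, for counts, beyond 1.5 times: no background correction, median scaling, cyclic loess, quantile normalization over the 2 arrays, block and row medians subtracted, no filter on dim probes, detection on both arrays, and a limit of the mean plus 5 SD of the blanks. With the mean of the blanks subtracted instead of normexp, which stretches dim probes, 108 probes were 2-fold higher and 27 lower, 5 genes had agreeing probes 1.5-fold higher and 2 lower, and the medians were 0.505 for interferon-stimulated and 0.276 for inflammation genes. With an offset of 16 there were 9 lower probes, and the interferon-stimulated median was 0.326. Without blocks 22 to 24 there were 2 lower probes. In the deposited values, whose median over 17932 probes is shifted by -0.222, there were 81 higher and 149 lower probes and 16 genes with agreeing probes lower, the cell division median was -0.352 (-0.130 after the shift is taken off), and the NRF2 and metallothionein median was -0.0586. The medians of 19 of 42 lists changed sign there, and 2 did after the shift is taken off (EGFR ligands and receptors, and the constitutive proteasome, both near 0). Over the other alternatives the medians ran from 0.198 to 0.505 for interferon-stimulated genes, from 0.0957 to 0.276 for inflammation genes and from -0.148 to -0.103 for cell division genes. The causes of these shifts were not tested beyond the construction of each setting. With 1 array per culture, signal near the blanks limits what can be said of dim transcripts such as IFNB1.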
